A study of Mus musculus with 112 samples.

Results

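The natriuretic peptide system was represented by 7 genes: the peptide genes Nppa, Nppb and Nppc, the receptor genes Npr1, Npr2 and Npr3, and Prkg1, the kinase downstream of the receptors. Their members were every probe set that carries 1 of these symbols, which gave 9 of the 32640 probe sets of the deposited table. Npr3 and Prkg1 have 2 probe sets each and the other 5 genes have 1 each. All 9 probe sets were tested, without a filter on low values.

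The mice were males that carried 2 copies of a knock-in allele of the nuclear receptor Pparγ (Ala/Ala) or were littermates with 2 wild-type copies (Pro/Pro). From an age of 8 weeks they were given a high-fat diet (HFD) or stayed on chow, for 15 weeks in one of the submitters' texts and for 12 weeks in another, and these texts name different feeds. Epididymal fat was measured in 8 Ala/Ala HFD, 9 Ala/Ala chow, 10 Pro/Pro HFD and 10 Pro/Pro chow mice. Gastrocnemius muscle was measured in 9, 10, 8 and 8 mice of these groups and liver in 10 mice of each, from 41 mice in all. The allele is in the germ line, so every tissue carries it, and whole tissue was used. Each value is the log2 ratio of 1 mouse to a virtual pool of the Pro/Pro HFD mice of the same tissue, so a value of 0 means the level of that pool. Differences between diets and genotypes can be read from such ratios, but the level of a gene, the presence of a tissue's markers and the order of levels between tissues or genes cannot.

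Natriuretic peptides are hormones of the circulation. Atrial and B-type natriuretic peptide, encoded by Nppa and Nppb, come mainly from heart muscle, and C-type natriuretic peptide, encoded by Nppc, is made by endothelium and several other tissues. Npr1 binds the cardiac peptides and Npr2 binds C-type natriuretic peptide, and both receptors are membrane guanylyl cyclases that make cGMP, which activates the protein kinase encoded by Prkg1. Npr3 binds all of the peptides but has no cyclase domain, and it takes them up for degradation, so it is called the clearance receptor. In adipocytes cGMP signalling is known to stimulate lipolysis, and in mouse fat it can induce thermogenic genes.

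Between diets, the differences over both genotypes were largest for the Npr3 probe sets in fat and muscle, and Npr1, the receptor that signals for the cardiac peptides, differed the other way in fat. The 250 bases before the start of each gene are therefore shown, 5′ to 3′ on the strand of the gene, from RefSeq's promoter windows of build GRCm38.p6. Capitals mark the letters CCAAT read on the opposite strand, ATTGG. The Npr3 window is chr15:11907372-11907621 on the minus strand and the Npr1 window is chr3:90465867-90466116 on the minus strand.
Npr3: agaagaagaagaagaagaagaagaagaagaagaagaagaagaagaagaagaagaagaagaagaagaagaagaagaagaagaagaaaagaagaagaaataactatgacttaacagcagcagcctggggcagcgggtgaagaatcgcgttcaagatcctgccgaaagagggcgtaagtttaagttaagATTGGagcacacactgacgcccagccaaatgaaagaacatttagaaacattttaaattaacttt
Npr1: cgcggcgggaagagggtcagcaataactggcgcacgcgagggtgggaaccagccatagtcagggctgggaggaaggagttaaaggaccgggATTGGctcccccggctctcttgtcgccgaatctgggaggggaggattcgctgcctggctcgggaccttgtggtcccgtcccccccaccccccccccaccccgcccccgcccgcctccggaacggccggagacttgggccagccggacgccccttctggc
The Npr3 window opens with an AGA repeat of 84 bases and has a GC content of 38.8%, while 70.4% of the Npr1 window is G or C. The CCAAT letters begin 64 bases before the start of Npr3 and 159 bases before that of Npr1. All 7 members matched a promoter entry, and Prkg1 matched 2. Searched on both strands of the 250 bases, CCAAT occurred in Nppc, Npr1, Npr3 and Prkg1 and in 33.8% of all 32851 promoters. TATAAA occurred in the 3 peptide genes Nppa, Nppb and Nppc and in 12.4% of all promoters. The nuclear receptor half-site AGGTCA occurred in none of the members' windows and in 14.0% of all promoters, and the same letters repeated 1 base apart occurred in none of them and in 0.0335%. Every match of the repeat is also a match of the half-site, so these 2 shares are not separate. A match describes only the letters in this window.

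Some fat arrays stood apart. In 10 of the 37 fat arrays, 8 of them from HFD mice, the mean of 7 measured epididymis and testis genes was above -1.5 or that of 4 measured hepatocyte genes above 0 (log2 ratio). The first mean ran from -1.07 to 0.75 in 5 arrays, against -2.57 to -1.78 in all chow arrays, and the hepatocyte mean ran from 0.81 to 2.72 in 6 arrays, 1 of which was also high in the first. The members' fat results are given with these arrays and, where a call or a count changed, without them. The pathway lists and the other marker lists are treated in the same way below. Over all arrays 0 of the 4 hepatocyte genes were called between the diets, with HFD minus chow differences of 0.71 to 2.22. Without the 10 arrays 2 of the 4 were called higher on HFD, where 17.5% of all genes were. These were Ttr at 2.12 and Apoh at 0.47 (limma adjusted p = 0.0381 and 0.0465), and neither was called over all arrays. Of the 7 epididymis and testis genes, 0 were then called. In muscle the hepatocyte mean also varied widely, from -4.43 to 0.04. Its medians were -1.23 in Ala/Ala HFD, -3.31 in Ala/Ala chow, -1.96 in Pro/Pro HFD and -2.05 in Pro/Pro chow muscle. Muscle arrays were not set apart by this mean, and its part in the muscle results was not tested. The genes most like a member are given over all fat arrays only. No member value reached the floor of the table. In whole tissue, fewer cells of a type and less RNA per cell cannot be told apart.

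The first question was whether diet changed the transcripts of the system in fat. Over both genotypes, 5 of the 9 probe sets passed at an adjusted p of 0.05, 2 higher and 3 lower on HFD, where 38.7% of all probe sets passed in either direction, 18.4% higher and 20.3% lower. The 2 that rose were both Npr3, and the 3 that fell were Npr1, Npr2 and 1 of the 2 Prkg1 probe sets. Within Ala/Ala mice 2 of 9 passed, both higher, against a background of 26.9% in either direction (12.3% higher, 14.6% lower). Within Pro/Pro mice 4 of 9 passed, 2 higher and 2 lower, against 22.5% (9.36% higher, 13.1% lower). Passing in fat was thus common among all probe sets. Without the 10 arrays the numbers that passed were 2 in Ala/Ala mice, 3 in Pro/Pro mice and 4 over both genotypes. Counted by gene, 17.5% of all genes were then higher and 16.1% lower over both genotypes. The share of all probe sets was not taken without these arrays, so these numbers have no like background. The members' median difference over both genotypes was 0.02 and that of all probe sets 0.02 on the log2 scale.

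The peptide genes differed little between the diets in fat. Nppa, which encodes atrial natriuretic peptide, lay between -0.37 and 0.20 in all 37 fat arrays, Nppb, which encodes B-type natriuretic peptide, between -0.30 and 0.42, and Nppc, which encodes C-type natriuretic peptide, between -0.34 and 0.26. Their HFD and chow arrays overlapped over most of these ranges in both genotypes. Averaged over genotypes, the HFD minus chow difference was 0.10 ± 0.05 for Nppa (SE, limma adjusted p = 0.0811), 0.02 ± 0.06 for Nppb (adjusted p = 0.78) and 0.11 ± 0.05 for Nppc (adjusted p = 0.086). The 95% intervals of these differences were 0.01 to 0.20, -0.09 to 0.14 and 0.01 to 0.22.

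The guanylyl cyclase receptors were slightly lower on HFD in fat. Npr1 had a lowest, median and highest value of -0.25, -0.06 and 0.07 in Ala/Ala HFD mice, against -0.15, 0.08 and 0.41 in Ala/Ala chow mice. The same values in Pro/Pro mice were -0.31, -0.02 and 0.40 on HFD and -0.09, 0.10 and 0.29 on chow. The medians were lower on HFD in both genotypes, and the groups overlapped over most of their range. Npr1 fell by 0.14 ± 0.05 over both genotypes (adjusted p = 0.0214). Without the 10 fat arrays set apart above, the difference was -0.13 and no longer passed (adjusted p = 0.0703). Of 6 endothelium genes, Tek and Kdr, which encode receptors of vascular growth factors, fell by 0.37 ± 0.06 and by 0.12 ± 0.04 on HFD in fat and Cdh5, which encodes an adhesion protein of endothelial junctions, rose by 0.13 ± 0.05, where 22.1% of all genes rose and 18.8% fell. The mean of the list lay between -0.22 and 0.00 in Ala/Ala HFD fat, against -0.13 to 0.35 in Ala/Ala chow fat, and between -0.18 and 0.26 in Pro/Pro HFD fat, against -0.24 to 0.42 in Pro/Pro chow fat. The group means of the list were thus lower on HFD, as were those of Npr1 and Npr2, and without the 10 arrays Tek was the 1 endothelium gene still called. Its part in the receptors' differences was not tested.

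Npr2, the receptor of C-type natriuretic peptide, lay between -0.09 and 0.27 in Ala/Ala HFD mice with a median of 0.03, and between 0.06 and 0.34 in Ala/Ala chow mice with a median of 0.24. Pro/Pro mice had values between -0.23 and 0.19 with a median of 0.02 on HFD, against -0.04 to 0.35 with a median of 0.16 on chow. The HFD arrays were again the lower ones in both genotypes, with overlap. Npr2 fell by 0.14 ± 0.04 over both genotypes (adjusted p = 0.00694). Within Pro/Pro mice it fell by 0.15 ± 0.06 (adjusted p = 0.0471), a call that was lost without the 10 arrays (-0.11, adjusted p = 0.274) and in 17 of the 37 fits that left out 1 mouse. Within Ala/Ala mice the difference was -0.13 ± 0.06 (adjusted p = 0.119).

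The clearance receptor Npr3 was higher on HFD in fat of both genotypes, on both probe sets. On the first probe set (100029353_TGI_at) its lowest, median and highest values were -0.41, -0.28 and 0.24 in Ala/Ala HFD mice, against -1.51, -0.95 and -0.22 in Ala/Ala chow mice. Among Pro/Pro mice they were -0.31, -0.06 and 0.36 on HFD, against -1.85, -0.81 and -0.26 on chow. The HFD arrays lay together near the pool, while the chow arrays spread widely below it, and the highest chow arrays overlapped the lower part of the HFD range. Npr3 rose by 0.73 ± 0.18 in Ala/Ala mice (1.66-fold, adjusted p = 0.00274) and by 0.88 ± 0.17 in Pro/Pro mice (1.84-fold, adjusted p = 0.000156).

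On the second probe set (100029662_TGI_at) the values were -0.32, 0.01 and 0.16 in Ala/Ala HFD fat, against -0.76, -0.48 and -0.11 in Ala/Ala chow fat. In Pro/Pro fat they were -0.16, -0.02 and 0.21 on HFD, against -1.34, -0.39 and -0.14 on chow. The order of the groups was that of the first probe set, over a narrower range. Npr3 rose there by 0.44 ± 0.12 in Ala/Ala mice (1.36-fold, adjusted p = 0.00531) and by 0.53 ± 0.11 in Pro/Pro mice (1.45-fold, adjusted p = 0.000359). Over both genotypes the first probe set rose by 0.80 ± 0.12 (adjusted p = 2.21e-06) and the second by 0.49 ± 0.08 (adjusted p = 7.33e-06). Without the 10 arrays the differences were 0.81 and 0.50. Within Ala/Ala mice they were then 0.65 and 0.46, closer to the threshold (adjusted p = 0.0444 and 0.0324). Within Pro/Pro mice they were 0.98 and 0.54 (adjusted p = 0.00182 and 0.00816). After the group means were taken out, the 2 Npr3 probe sets had a Pearson r of 0.852 over the 37 fat arrays.

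**Figure D1:**
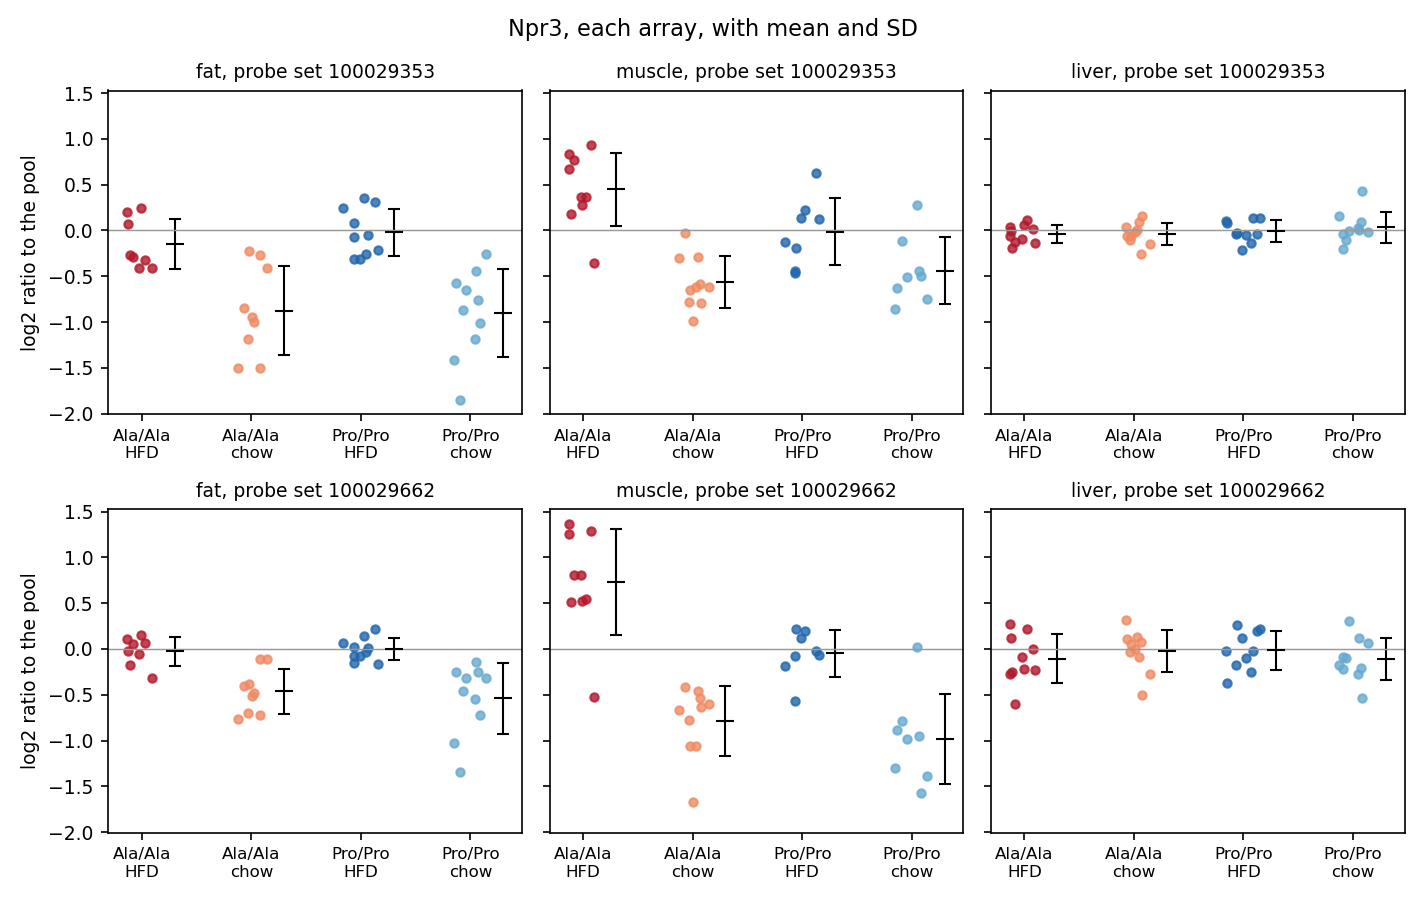
Npr3 log2 ratio to the pool (vertical axis) in each array of the 4 groups, for the 2 probe sets (rows) in fat, muscle and liver (columns); points are mice, and bars show the group mean and SD. HFD arrays lay above most chow arrays in fat and muscle, reaching 1.37 in Ala/Ala HFD muscle, while the liver groups overlapped around 0.

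Prkg1, the cGMP-dependent kinase, was lower on HFD in fat on 1 of its 2 probe sets. On 100019044_TGI_at the lowest, median and highest values were -0.08, 0.14 and 0.32 in Ala/Ala HFD mice, against 0.17, 0.30 and 0.40 in Ala/Ala chow mice. Among Pro/Pro mice they were -0.46, 0.06 and 0.15 on HFD, against 0.03, 0.34 and 0.47 on chow. In that genotype 8 of 10 chow arrays lay above every HFD array. Prkg1 fell there by 0.32 ± 0.07 in Pro/Pro mice (adjusted p = 0.000319), and in Ala/Ala mice the difference was -0.18 ± 0.07 (adjusted p = 0.0607). Over both genotypes it fell by 0.25 ± 0.05 (adjusted p = 6.97e-05), and by 0.27 without the 10 arrays. On the other Prkg1 probe set, 100017542_TGI_at, the difference over both genotypes was 0.01 ± 0.08 (adjusted p = 0.899), and the 2 probe sets had a residual r of 0.232 in fat. The mean of the 2 did not pass in fat over both genotypes (-0.12, adjusted p = 0.0538). Of 6 smooth muscle and pericyte genes, cells in which Prkg1 is known to be abundant, 0 passed in fat over all arrays, and without the 10 arrays Myh11 and Tagln, which encode contractile proteins of smooth muscle, were lower, at -0.64 and -0.38 (adjusted p = 0.000446 and 0.0092). Their part in the Prkg1 difference was not tested.

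**Figure D2:**
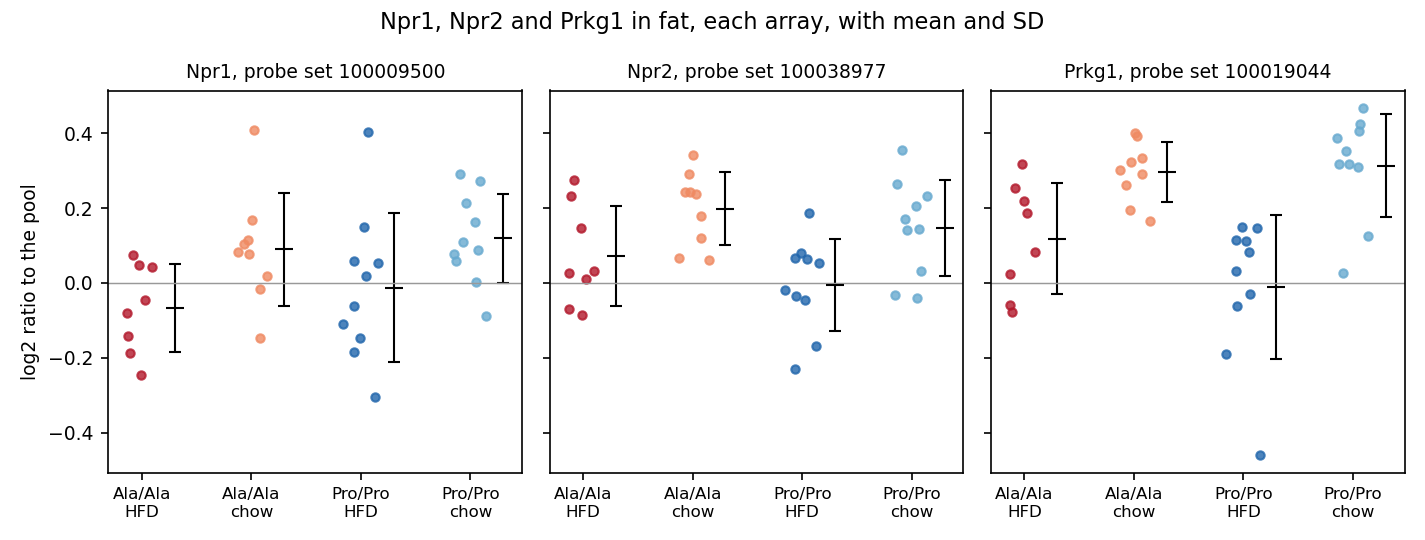
Npr1, Npr2 and Prkg1 (probe set 100019044_TGI_at) in fat as log2 ratio to the pool, 1 point per mouse, with group mean and SD. The HFD groups had lower means than the chow groups of the same genotype, with overlapping points; the lowest Prkg1 value, -0.46, belonged to a Pro/Pro HFD mouse.

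In muscle the members called were again mainly Npr3. Over both genotypes 3 of the 9 probe sets passed, all higher on HFD, where 5.37% of all probe sets passed in either direction (2.05% higher, 3.31% lower). Within Ala/Ala mice 2 of 9 passed, both higher, against 1.95% in either direction (1.02% higher, 0.938% lower). Within Pro/Pro mice 1 of 9 passed, higher, against 0.956% (0.414% higher, 0.542% lower). The 3 were both Npr3 probe sets and Prkg1.

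On the first Npr3 probe set the lowest, median and highest values in muscle were -0.35, 0.37 and 0.93 in Ala/Ala HFD mice, against -0.99, -0.62 and -0.03 in Ala/Ala chow mice. Pro/Pro muscle had values of -0.46, 0.00 and 0.62 on HFD, against -0.86, -0.50 and 0.28 on chow. In Ala/Ala mice 8 of 9 HFD arrays lay above every chow array, while the Pro/Pro groups overlapped over most of their range. Npr3 rose by 1.02 ± 0.15 in Ala/Ala mice (2.02-fold, adjusted p = 5.81e-05), and the difference in Pro/Pro mice was 0.43 ± 0.17 (adjusted p = 0.253).

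On the second Npr3 probe set the muscle values were -0.52, 0.80 and 1.37 in Ala/Ala HFD mice, against -1.67, -0.65 and -0.42 in Ala/Ala chow mice. Pro/Pro muscle had values of -0.57, -0.04 and 0.21 on HFD, against -1.58, -0.97 and 0.02 on chow. In Ala/Ala mice 8 of 9 HFD arrays lay above every chow array, and 7 of 8 Pro/Pro chow arrays lay below every HFD array of that genotype. Npr3 rose there by 1.52 ± 0.19 in Ala/Ala mice (adjusted p = 3.12e-06) and by 0.93 ± 0.21 in Pro/Pro mice (1.91-fold, adjusted p = 0.0161). Over both genotypes the rise was 0.72 ± 0.11 on the first probe set (adjusted p = 4.76e-05) and 1.23 ± 0.14 on the second (2.34-fold, adjusted p = 2.04e-07). The log base and the direction of the muscle ratios were taken to be those of fat and liver, since only 8 of the 10 mice of the pool are among these arrays. Over the 500 most variable probe sets, the mean ratio of these 8 arrays was off that of the pool by a median of 0.0224 (log10) as deposited and of 0.0516 with the ratios inverted, so the direction used was the nearer of the 2.

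Prkg1 on 100019044_TGI_at had muscle values of -0.29, 0.02 and 0.28 in Ala/Ala HFD mice, against -0.44, -0.23 and -0.14 in Ala/Ala chow mice. In Pro/Pro muscle they were -0.43, -0.05 and 0.28 on HFD, against -0.56, -0.27 and -0.13 on chow. The HFD medians were the higher ones in both genotypes, opposite to fat. Prkg1 rose by 0.23 ± 0.05 over both genotypes (adjusted p = 0.00645), and the other Prkg1 probe set differed by 0.17 ± 0.12 (adjusted p = 0.508). The mean of the 2 did not pass (0.20, adjusted p = 0.125). Of the peptide genes and the cyclase receptors in muscle, the differences over both genotypes ran from -0.07 for Npr1 to 0.02 for Nppa and none passed.

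**Figure D3:**
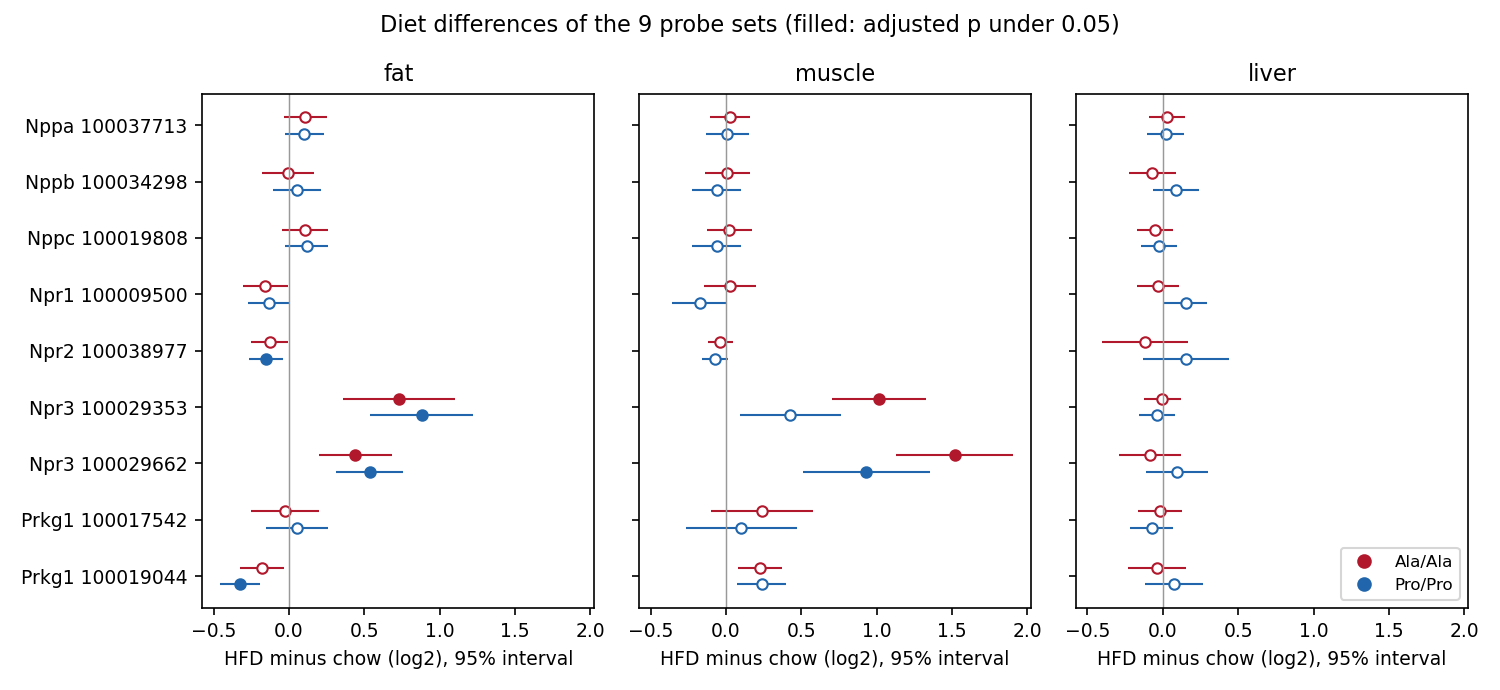
HFD minus chow difference (log2, horizontal axis) of each of the 9 probe sets in fat, muscle and liver, with 95% intervals, for Ala/Ala and Pro/Pro mice; filled points passed at an adjusted p of 0.05. Both Npr3 probe sets stand right of 0 in fat and muscle, up to 1.52, and no point is filled in liver.

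In liver 0 of the 9 probe sets passed limma's test in a diet contrast, where 0% of all probe sets passed. The number with an unadjusted p under 0.05 was 0 in Ala/Ala mice, 1 in Pro/Pro mice and 0 over both genotypes. Of all 32640 probe sets, 929, 1892 and 1572 had such a p in these contrasts. Npr3 lay between -0.26 and 0.43 on the first probe set and between -0.60 and 0.32 on the second over the 40 liver arrays, with overlapping groups. The diet difference over both genotypes was -0.02 (95% interval -0.11 to 0.07) and 0.01 (-0.14 to 0.15). The member with an unadjusted p under 0.05 was Npr1, at 0.15 ± 0.07 in Pro/Pro mice (adjusted p = 0.851).

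No member's HFD and chow arrays were fully separate in either genotype in any tissue. The share of all probe sets that were fully separate was 4.35% in Ala/Ala and 2.56% in Pro/Pro mice for fat, 0.273% and 0.319% for muscle, and 0% in liver.

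The diet differences were then compared between tissues in 1 fit over the arrays of all 3 tissues. Between fat and muscle 2 of the 9 probe sets differed, where 25.1% of all probe sets did, between fat and liver 4, where 26.6% did, and between muscle and liver 2, where 0.824% did. The second Npr3 probe set rose more in muscle than in fat, with a fat minus muscle difference of -0.74 ± 0.15 (adjusted p = 4.89e-05). For the first Npr3 probe set this difference was 0.08 ± 0.14 (adjusted p = 0.738), so the 2 probe sets of the gene did not give the same order. Npr3 differed from liver in both tissues on both probe sets, by 0.82 ± 0.14 and 0.48 ± 0.14 for fat minus liver (adjusted p = 1.12e-06 and 0.00679) and by 0.74 ± 0.14 and 1.22 ± 0.15 for muscle minus liver (adjusted p = 0.000467 and 2.42e-09). Prkg1 on 100019044_TGI_at had a lower diet difference in fat than in muscle, by -0.48 ± 0.08 (adjusted p = 3.1e-06), and lower than in liver, by -0.27 ± 0.08 (adjusted p = 0.00759). Npr1 differed between fat and liver by -0.21 ± 0.08 (adjusted p = 0.0326).

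The second question was whether the Ala allele changed the system. None of the 9 probe sets passed in a genotype contrast in any tissue by limma. The share of all probe sets that passed was 0.0705% on HFD, 0.0153% on chow and 0.0429% over both diets in fat, then 0.0153%, 0.0184% and 0.0337% in muscle, and 0%, 0% and 0.0153% in liver. Members with an unadjusted p under 0.05 numbered 0 in each fat contrast. In muscle they numbered 3 on HFD, 0 on chow and 1 over both diets, and in liver 1, 2 and 2. Of all 32640 probe sets, 2943 on HFD, 740 on chow and 1970 over both diets had such a p in fat. For these contrasts the numbers were 2684, 1042 and 2276 in muscle and 2855, 3165 and 4832 in liver. The methods' t-test, which the submitters' text names, called 0 members on either diet in every tissue, also at the authors' false discovery rate of 0.20. Few probe sets of any gene passed this t-test at that rate. On HFD it called 10 for fat, 29 for muscle and 1 for liver. The chow numbers, listed by tissue as before, were 1, 5 and 3. The count of 0 members therefore does not set them apart from other genes.

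In fat the Npr3 genotype difference on HFD was -0.13 on the first probe set (95% interval -0.49 to 0.23) and -0.02 on the second (-0.26 to 0.22). In muscle on HFD the Ala/Ala medians of Npr3 were above those of Pro/Pro on both probe sets, and the groups overlapped. The muscle difference on HFD was 0.46 ± 0.16 on the first probe set (adjusted p = 0.466) and 0.78 ± 0.20 on the second (adjusted p = 0.276). Without the Ala/Ala HFD mouse at -0.52, which lay apart from the others of its group, the second passed, at 0.94 (adjusted p = 0.0327). No other of the 35 fits that left out 1 mouse gave a call on that probe set (adjusted p up to 0.506). The first probe set passed in none of them (adjusted p = 0.286 to 0.654). On chow the muscle differences were -0.13 ± 0.16 and 0.19 ± 0.20. Npr1 had a muscle difference of 0.19 ± 0.09 on HFD (adjusted p = 0.598).

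In liver Nppc was lower in Ala/Ala mice over both diets by value, at -0.15 ± 0.04, without passing (adjusted p = 0.11). Its lowest, median and highest liver values on HFD were -0.32, -0.14 and -0.02 in Ala/Ala mice and -0.13, -0.05 and 0.18 in Pro/Pro mice. On chow they were -0.29, -0.12 and 0.10 in Ala/Ala mice and -0.24, 0.02 and 0.37 in Pro/Pro mice. The Ala/Ala medians were the lower ones on both diets, with overlap. Npr2 in liver had a difference of 0.35 ± 0.14 on chow (adjusted p = 0.426).

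The diet-by-genotype difference, the diet difference of Ala/Ala minus that of Pro/Pro, passed for 0 of 9 probe sets by limma in each tissue, where 0% of all probe sets passed. The numbers with an unadjusted p under 0.05 were 0 in fat, 2 in muscle and 0 in liver, against 1622, 1365 and 1161 of all 32640 probe sets. The 2 were the Npr3 probe sets in muscle, both at 0.59, with 95% intervals of 0.13 to 1.04 and 0.01 to 1.16 (adjusted p = 0.998 for both). Thus the larger Npr3 difference in Ala/Ala muscle was not shown to differ from that in Pro/Pro muscle.

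The genes most like each called member were taken as the 3 with the highest Pearson r over the arrays of a tissue, after the 4 group means were taken out. These are descriptions over 37 fat or 35 muscle arrays that share their labelling and hybridisation site. The gene most like the second Npr3 probe set was Lep, which encodes leptin, with r = 0.881 in fat and r = 0.867 in muscle. The next were Slc5a3 (0.836) and Fads3 (0.816) in fat, and Aoc3 (0.84) and Sncg (0.826) in muscle. For the first Npr3 probe set these were Mrps6 (0.841), Cryab (0.841) and Cavin3 (0.833) in fat, and Lep (0.756), Sncg (0.736) and Tmem45b (0.731) in muscle. Npr1 in fat was most like Ppp1r9a (0.656), Caskin2 (0.633) and Rapgef1 (0.624). Npr2 in fat was most like Rras (0.77), Apc2 (0.755) and Eps15l1 (0.752). On HFD Rras and Apc2 rose by 0.17 and 0.12, opposite to Npr2, and Eps15l1 differed by -0.17 (limma adjusted p = 0.0017, 0.0198 and 0.000917). Prkg1 on 100019044_TGI_at was most like Rapgef5 (0.709), Clic5 (0.702) and Cntln (0.698) in fat. In muscle it was most like Myh7 (0.792), Tnnt1 (0.782) and Tnnc1 (0.773), which encode contractile proteins of slow fibres. These 3 did not pass the diet test in muscle, at -0.05, -0.16 and -0.01 (limma adjusted p = 0.937, 0.711 and 0.992).

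Lep itself had fat values of -0.46, 0.05 and 0.38 in Ala/Ala HFD mice, against -2.33, -1.48 and -0.72 in Ala/Ala chow mice. In muscle it had values of -0.97, 1.14 and 2.37 in Ala/Ala HFD mice, against -1.40, -0.79 and 0.07 in Ala/Ala chow mice, and values of -0.63, 0.17 and 0.32 in Pro/Pro HFD mice, against -1.70, -1.02 and 0.04 in Pro/Pro chow mice. As with Npr3, the Ala/Ala HFD group held the highest muscle arrays. Lep rose by 1.35 ± 0.20 in muscle over both genotypes (adjusted p = 2e-05).

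**Figure D4:**
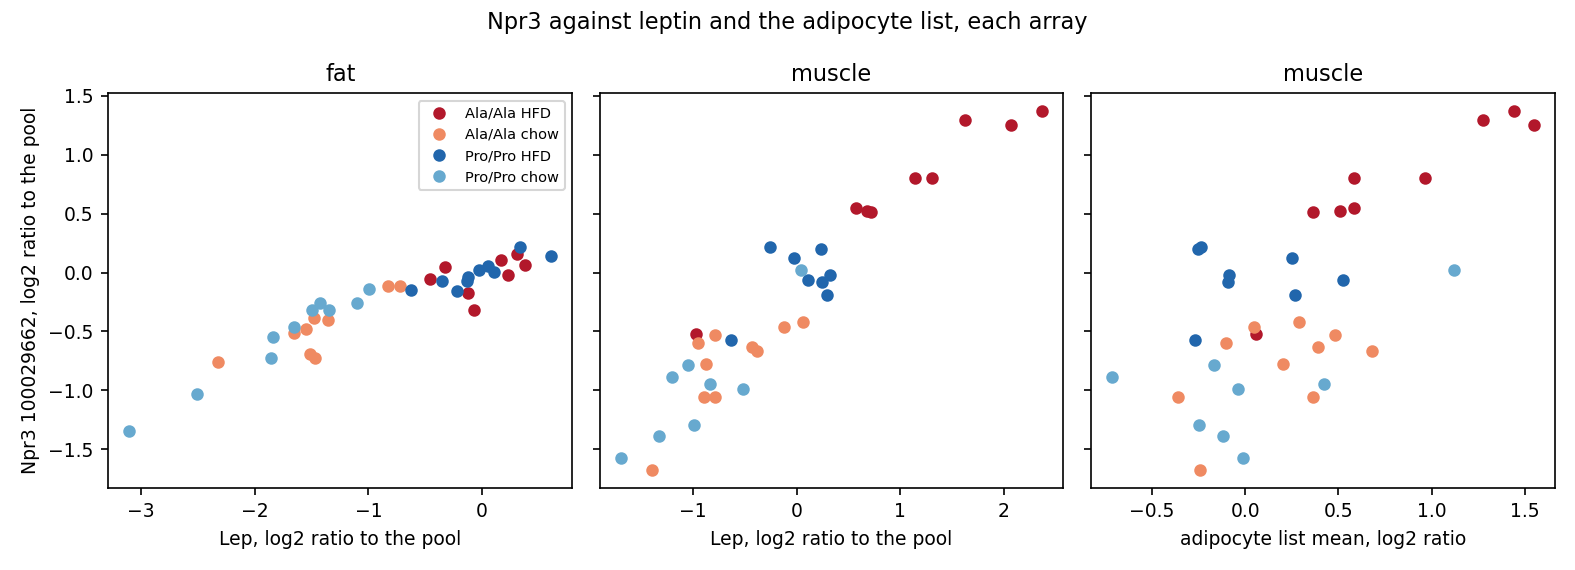
Npr3 (probe set 100029662_TGI_at, vertical axis) against Lep in fat (left) and muscle (middle) and against the mean of the adipocyte list in muscle (right), all as log2 ratio to the pool, 1 point per array. Arrays with more Lep had more Npr3 in both tissues, with a residual r of 0.881 for fat and 0.867 for muscle.

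Markers of adipocytes were therefore set beside Npr3 in muscle. Of the adipocyte list (Adipoq, Lep, Cfd, Fabp4, Plin1 and Cidec), 5 of 6 genes were measured, and 1 of the 5, Lep, passed the diet test in muscle. Adipoq, which encodes adiponectin, differed by 0.25 ± 0.17 (adjusted p = 0.474) and Cfd, which encodes adipsin, by -0.42 ± 0.17 (adjusted p = 0.143). The mean of the 5 genes ranged from 0.06 to 1.55 in Ala/Ala HFD muscle, from -0.36 to 0.68 in Ala/Ala chow muscle, from -0.27 to 0.52 in Pro/Pro HFD muscle and from -0.71 to 1.12 in Pro/Pro chow muscle. The Ala/Ala HFD group was thus the highest in the adipocyte list as well as in Npr3.

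A fit with the list mean as a covariate was added after the data were seen. In it the Npr3 diet difference in muscle over both genotypes was 0.56 and 1.01 on the 2 probe sets (limma adjusted p = 0.000214 and 2.41e-07). The genotype difference on HFD was then 0.04 and 0.23 (adjusted p = 0.973 and 0.818). With Lep left out of the list, the diet differences were 0.70 and 1.20 and the genotype differences on HFD 0.16 and 0.40. Npr3 rose on HFD in fat as well, so such fits cannot set apart the part of adipocytes within muscle, which was not tested. The residual correlation of the list mean with Npr3 over the 35 muscle arrays was r = 0.637 and rho = 0.626 for the first probe set (permutation p = 3e-05 and 0.00012, adjusted over 10 relations 7.5e-05 and 0.0006) and r = 0.663 and rho = 0.533 for the second (permutation p = 3e-05 and 0.00111, adjusted 7.5e-05 and 0.00277). Without the 2 arrays farthest from the median of the list, r was 0.56 and 0.55. Within single groups, r for the second probe set ran from 0.03 in Pro/Pro HFD to 0.911 in Ala/Ala HFD muscle. Lep is in this list and was most like both Npr3 probe sets in these same arrays. The permutation p-values are therefore not separate from that relation, and no correlation without Lep was run.

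In fat the adipocyte list held Lep, which rose, and Adipoq and Cfd, which fell by 0.12 ± 0.02 and by 0.41 ± 0.04, while Fabp4 and Cidec did not pass. The residual r of its mean with Npr3 was 0.672 and 0.75 (permutation p = 2e-05 and 1e-05, where 1e-05 is the smallest that the permutations can give, adjusted 7.5e-05 for both), rho was 0.574 and 0.697, and r was 0.519 and 0.642 without the 2 farthest arrays. Within single groups r for the first probe set was -0.10 in Ala/Ala HFD, 0.576 in Ala/Ala chow, 0.478 in Pro/Pro HFD and 0.97 in Pro/Pro chow fat, and for the second it was 0.329, 0.584, 0.69 and 0.932. The relation was thus near 0 in Ala/Ala HFD fat on the first probe set and strongest in Pro/Pro chow fat on both. Without the 10 arrays r was 0.627 and 0.797. The list holds Lep, which was most like the second probe set in these same arrays. The permutation p-values of the list are therefore not separate from that relation, and a correlation without Lep was not run. Of 6 mesothelium genes 4 fell on HFD in fat, where 18.8% of all genes fell, and their mean had a residual r with Npr3 of -0.07 and -0.05 (adjusted permutation p = 0.741 and 0.756). Of 6 macrophage genes 3 rose and 1 fell, where 22.1% of all genes rose and 18.8% fell, with a residual r of 0.22 and 0.18 (adjusted permutation p = 0.278 and 0.361) and a rho of 0.39 and 0.37 (adjusted 0.0274 and 0.035). Without the 10 arrays 3 macrophage genes rose and 0 fell, and r was 0.05 and -0.04. With the mesothelium mean as a covariate, Npr3 differed by 0.76 and 0.47 in fat, and Npr1 no longer passed (-0.11, adjusted p = 0.24).

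In the 31 mice measured in both tissues, Npr3 in fat was set against Npr3 in muscle after the group means were taken out. On the second probe set r was 0.464 and rho 0.496 (permutation p = 0.00999 and 0.0048, adjusted 0.02 and 0.0096), and r was 0.447 without the 2 farthest mice. On the first probe set r was 0.329 and rho 0.248 (adjusted permutation p = 0.12 and 0.227). Within the 4 groups of 7 to 9 mice, r ran from 0.14 to 0.595 on the second probe set and from -0.43 to 0.593 on the first.

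The rest of the pathway was described by lists of genes, each gene by its most variable probe set. In fat over both genotypes 22.1% of all genes rose and 18.8% fell on HFD. Of 5 measured genes of peptide processing and clearance, 1 rose and 0 fell. The 1 was Mme, which encodes neprilysin, a membrane peptidase that degrades natriuretic peptides, at 0.50 ± 0.10 (adjusted p = 7.5e-05). Corin and Furin, which process the peptide precursors, differed by -0.18 ± 0.16 and 0.10 ± 0.06. The list's median was 0.08, against 0.04 for all genes.

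Of 9 genes of the other inputs to guanylyl cyclases, 3 rose and 2 fell. The 2 that fell encode subunits of the nitric oxide receptor, the soluble guanylyl cyclase, with Gucy1a1 at -0.46 ± 0.09 (adjusted p = 0.000151) and Gucy1b1 at -0.32 ± 0.08 (adjusted p = 0.00216). Nos1, a nitric oxide synthase, rose by 0.45 ± 0.06 and Guca2b, which encodes uroguanylin, by 0.19 ± 0.06. Nos3, the endothelial nitric oxide synthase, differed by -0.02 ± 0.07. The list's median was 0.09.

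Of 11 measured genes of cGMP breakdown and export, 2 rose and 5 fell, with a median of -0.15. Pde1a, a calcium-dependent phosphodiesterase, fell by 0.52 ± 0.07 (adjusted p = 2.65e-07), and its relative Pde1b rose by 0.27 ± 0.05. Pde3b, the adipocyte phosphodiesterase through which insulin restrains lipolysis, fell by 0.35 ± 0.06 (adjusted p = 1.84e-05), and Pde2a, which cGMP stimulates, rose by 0.19 ± 0.05. Pde5a, which is specific for cGMP, differed by -0.16 ± 0.10 (adjusted p = 0.181).

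Of 9 measured partners and substrates of the kinase, 0 rose and 5 fell in fat, with a median of -0.24. Rgs2, a regulator of G protein signalling, fell by 0.95 ± 0.20 (adjusted p = 0.000268), Creb1, a transcription factor, by 0.39 ± 0.05, Ppp1r12a, the targeting subunit of myosin phosphatase, by 0.34 ± 0.10, and Prkg2, the second cGMP-dependent kinase, by 0.25 ± 0.09. None of the 4 measured lipolysis genes passed, with Lipe, the hormone-sensitive lipase, at 0.09 ± 0.05 and Pnpla2, the adipose triglyceride lipase, at -0.02 ± 0.05. Of 6 thermogenic genes 1 rose and 3 fell. Dio2, a deiodinase that activates thyroid hormone, rose by 0.42 ± 0.10, while Atf2, Ppargc1a and Mapk14 fell by 0.57 ± 0.09, 0.29 ± 0.12 and 0.08 ± 0.03, and Ucp1, the uncoupling protein, differed by 0.52 ± 0.26 (adjusted p = 0.111). Of 6 transcription factors known to act on Nppa and Nppb in the heart, Srf rose by 0.27 ± 0.05 and Mef2c fell by 0.44 ± 0.12. Without the 10 arrays 17.5% of all genes rose and 16.1% fell in fat. The counts higher and lower were then 2 and 3 for the other cyclase inputs, 2 and 4 for breakdown and export and 1 and 1 for the thermogenic genes, and those of the other 4 lists did not change. Of the genes named, Prkg2 (-0.27, adjusted p = 0.0579), Ppargc1a (-0.23, adjusted p = 0.118) and Mapk14 (-0.08, adjusted p = 0.149) no longer passed, and Pde5a did (-0.29, adjusted p = 0.0257).

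In muscle 2.51% of all genes rose and 4.1% fell, and over the same lists 1 gene rose and 2 fell. Itpr1, an intracellular calcium channel, rose by 0.17 ± 0.05 (adjusted p = 0.0375), Rgs2 fell by 0.50 ± 0.12 (adjusted p = 0.00859) and Pcsk6, a protease related to furin, fell by 0.14 ± 0.04 (adjusted p = 0.0436). Rgs2 fell in both fat and muscle. In liver none passed, where 0% of all genes did. No gene of the lists passed in a genotype contrast in any tissue.

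**Figure D5:**
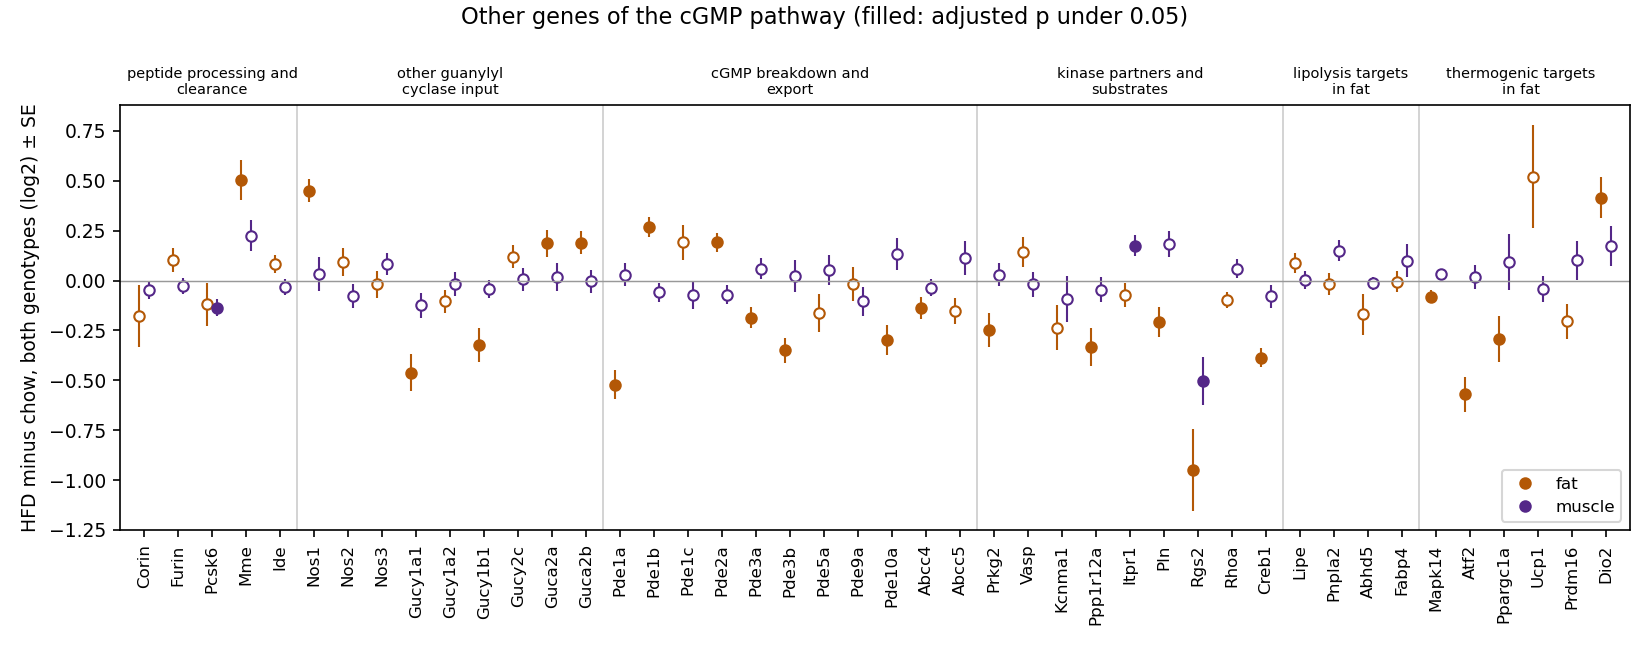
HFD minus chow difference over both genotypes (log2, with SE) of the other pathway genes in fat and muscle, grouped by list; filled points passed at an adjusted p of 0.05. Filled points are frequent in fat, from -0.95 for Rgs2 to 0.50 for Mme, and number 3 in muscle.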

How the data were processed

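RNA was hybridised to an Affymetrix mouse array, which the authors read with Rosetta Resolver, per the labels. Per the labels, the deposited values are log10 ratios to a virtual pool of the Pro/Pro HFD arrays of the tissue, although another label names RNA pooled from 10 wild-type samples. In fat and liver the ratios of the 10 pool arrays averaged 1 within 0.001 (log10) for all 9 members. The authors' log10 ratios were turned to log2. Intensities were not used here, so signal over background cannot be given and the authors' filter on expressed genes was not applied.

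Per tissue, limma 3.58.1 (R 4.3.3) fitted the 4 group means of 32640 probe sets, with Benjamini-Hochberg adjustment over all of them. Tissues were compared in a fit over all 12 groups. Correlations used 100000 permutations with numpy 2.4.6 and scipy 1.17.1. Deviations from the group means were permuted over all arrays or mice, not within groups. The p-values make no allowance for the fitted means or for unequal spread between groups. On the second Npr3 probe set in fat, the SD ran from 0.12 in Pro/Pro HFD to 0.39 in Pro/Pro chow mice. The fit was tested on simulated data. Arrays with the same mouse number come from the same animal, per the labels. Their deviations from group means over all probe sets correlated with medians of 0.0108 (fat with muscle), -0.0159 (fat with liver) and -0.00947 (muscle with liver). Named genes are the members, the passing genes of each list (up to 4 by smallest p) and the 3 most like each called member. Others were chosen after their values were seen. The members and lists were chosen with earlier results of these data known. Alternatives were median centring, quantile normalization, other probe set rules, array weights, each mouse left out, mouse as a block, the methods' t-test and a false discovery rate of 0.20. Fat without 10 arrays and the marker lists as covariates were added after the data were seen.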

Additional observations from a re-analysis of the deposited data

Results flagged for a closer look

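Of 108 groups of values, 4 held a mouse far from the others by Dixon's test, which chance gives in about 1 of 20 groups. In muscle, 1 Ala/Ala HFD mouse had -0.52 on the second Npr3 probe set (100029662_TGI_at), against a group median of 0.80 and a nearest value of 0.51. The same mouse had the lowest adipocyte list mean of its group in muscle, 0.06. A muscle array of Ala/Ala chow had -1.67 on that probe set, against a median of -0.65. Another array of that group had 0.56 for Npr1 in muscle, against a median of 0.06. In liver, 1 Ala/Ala chow mouse had 0.37 on the Prkg1 probe set 100017542_TGI_at, against a median of -0.05.

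The diet difference over both genotypes differed between tissues for 4 probe sets. For Npr3 on 100029662_TGI_at, fat minus muscle was -0.74, fat minus liver 0.48 and muscle minus liver 1.22. For Npr3 on 100029353_TGI_at, fat minus liver was 0.82 and muscle minus liver 0.74. For Prkg1 on 100019044_TGI_at, fat minus muscle was -0.48 and fat minus liver -0.27. For Npr1, fat minus liver was -0.21. The direction of the muscle ratios was taken from fat and liver, which was the nearer of the 2 directions to the pool.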

How the results depend on the processing

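None of the members' calls, nor the Npr3 genotype difference in muscle on HFD, reversed its direction under any alternative. Other differences and correlations were not followed in this way, and some changed sign without the 10 fat arrays. Examples are the diet difference of Pnpla2 (-0.02 to 0.03) and the macrophage r of the second Npr3 probe set (0.18 to -0.04). The Npr3 calls in fat and muscle held under median centring, quantile normalization, array weights and each left-out mouse, at 0.75 to 0.84 and 0.44 to 0.51 in fat and 0.68 to 0.77 and 1.18 to 1.30 in muscle over both genotypes without 1 mouse. With 1 probe set per gene or with the mean of a gene's probe sets, the members called in the diet contrasts numbered 1 in Ala/Ala, 2 in Pro/Pro and 3 over both genotypes in fat, and 1 in Ala/Ala and 1 over both in muscle. Npr3 then counts once, and with the mean Prkg1 was not called either. Among probe sets above the median variance 3 were called in fat over both genotypes. At a false discovery rate of 0.20, 5 were called in fat of Ala/Ala mice, 2 in muscle of Pro/Pro mice and 1 in liver between genotypes over both diets, Nppc. Without 1 mouse at a time, 2 to 3, 3 to 5 and 5 to 7 members were called in fat in Ala/Ala, Pro/Pro and both, and 0 to 1 in muscle between genotypes on HFD. The share of all probe sets called was not taken for these alternatives, so these counts have no background beside them. In fat of Ala/Ala mice 12417 of all 32640 probe sets had an unadjusted p under 0.05 by limma. Quantile normalization ended the calls of Npr1 over both genotypes (-0.12, adjusted p = 0.0967) and of Npr2 in Pro/Pro fat (-0.13, adjusted p = 0.114), and array weights that of Npr2 (-0.14, adjusted p = 0.0614). The cause of these losses was not tested. With mouse as a replicate block in the fit across tissues, no call changed (Npr3 on 100029662_TGI_at, fat minus muscle -0.74, adjusted p = 5.19e-05).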
